A study of Mus musculus with 16 samples.

Results

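Interleukin 1, interleukin 6 and interleukin 12 are the cytokine families through which macrophages, monocytes, neutrophils and dendritic cells signal early in inflammation, and 9 of their genes were followed here: Il1a, Il1b, Il18, Il1r1, Il1r2, Il6, Osm, Lif and Il12b. They were found as the gene spots of the arrays that carry the gene's own name. Spots of that kind existed for 8 of the 9 genes, within the 14360 genes tested in liver, the 13952 to 13953 tested in hepatic inflammatory cells and the 15962 to 15963 tested over both tissues. Lif had no spot under its own name and is not counted below. One probe named AK019683, which the files describe as leukaemia inhibitory factor, the Lif product, is given apart.

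The study injected female C57Bl/6 mice with 300 µg of concanavalin A, a lectin from jack beans whose action on T cells brings on an acute immune hepatitis, and asked how stem cells from fat change the response. Adipose tissue-derived stem cells, expanded in culture from inguinal fat of C57Bl/6 mice, went into the tail vein at 100000 per mouse, and tissue was taken 2 h later. Hepatic inflammatory cells were sampled 5 h after concanavalin A, from mice given stem cells at 3 h (2 samples, 987 and 989) and from mice given none (2 samples, 983 and 985). Livers were sampled at 5 h with stem cells at 3 h (mice 1, 2 and 3), at 5 h with none (mice 4, 5 and 6), at 2 h with stem cells at once (mice 8, 9 and 10) and at 2 h with none (mice 11, 12 and 13). All 16 animals or samples had received concanavalin A, so that no value shows the resting level, and time after the lectin differs between the stem cell schedules. One label of the untreated inflammatory cells also mentions stem cells, but the labels for treatment and description name none, and they were taken as untreated. Below, treated and untreated refer to the stem cells alone. The labels do not say whether each cell sample came from a separate mouse, so that p-values for the cells may measure technical spread.

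IL-1 alpha and IL-1 beta signal through the receptor encoded by Il1r1, while the receptor encoded by Il1r2 binds the same ligands and passes on no signal. IL-1 beta and IL-18 are made as inactive precursors that caspase-1 cuts inside the inflammasome. IL-6, oncostatin M and leukaemia inhibitory factor act through receptors that share the signalling chain encoded by Il6st and activate STAT3, which drives the acute phase response of hepatocytes. The Il12b product is the common chain of IL-12 and IL-23, which steer T cells and NK cells.

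Probes of the array design lie, on mouse build mm8, at chr2:128994430-128996164 and chr2:128991699-128991758 for Il1a and at chr2:129056052-129056111 for Il1b. Il18 was read at chr9:50331595-50333723 and Il1r1 at chr1:40260368-40260427. Il1r2 was read at chr1:40067715-40067774 and at chr1:40056672-40059619. Il6 was read at chr5:30350609-30350668, Osm at chr11:4140146-4140205 and chr11:4139500-4139559, and Il12b at chr11:44257042-44257101. The AK019683 probe lies at chr11:4174323-4174382. The Il18 probe, the first Il1a probe and the second Il1r2 probe span 2129, 1735 and 2948 bases of the genome, and the others 60. Whether a probe lies in coding sequence or in a UTR was not looked up, since no annotation of mm8 was used. Il1b, Il6, Il12b and Il18 are each printed as 10 spots per array, and the other probes as 1.

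Promoter windows of RefSeq (build GRCm38.p6), from 250 bases before to 50 bases after an annotated gene start, were held for 8 of the 9 genes, with 2 starts for Il1r1. The windows shown are those of Il6 and Il1b, because Il1b was the gene most like Il6 over the livers, and both starts of Il1r1, the member with the largest called differences. They lie at chr5:30012864-30013163 on the plus strand (Il6), chr2:129371090-129371389 on the minus strand (Il1b), and chr1:40224830-40225129 and chr1:40266336-40266635 on the plus strand (Il1r1). Capitals mark matches, on either strand, to NF-kB (by its consensus), AP-1 (TGANTCA), C/EBP (TTNNGNAA), CRE (TGACGTCA), STAT (TTCNNNGAA) and the TATA box (TATAAA).
Il6: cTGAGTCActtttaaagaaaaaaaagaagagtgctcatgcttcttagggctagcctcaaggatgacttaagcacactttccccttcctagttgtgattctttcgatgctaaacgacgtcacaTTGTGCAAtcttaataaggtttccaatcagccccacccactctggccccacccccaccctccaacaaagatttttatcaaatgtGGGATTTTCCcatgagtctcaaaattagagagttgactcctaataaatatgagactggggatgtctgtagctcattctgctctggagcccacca
Il1b: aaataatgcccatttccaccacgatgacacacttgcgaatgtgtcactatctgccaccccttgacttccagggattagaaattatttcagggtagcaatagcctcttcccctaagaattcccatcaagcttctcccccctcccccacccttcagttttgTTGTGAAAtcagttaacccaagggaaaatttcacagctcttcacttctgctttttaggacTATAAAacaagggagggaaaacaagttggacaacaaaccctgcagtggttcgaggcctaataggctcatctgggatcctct
Il1r1 start 1: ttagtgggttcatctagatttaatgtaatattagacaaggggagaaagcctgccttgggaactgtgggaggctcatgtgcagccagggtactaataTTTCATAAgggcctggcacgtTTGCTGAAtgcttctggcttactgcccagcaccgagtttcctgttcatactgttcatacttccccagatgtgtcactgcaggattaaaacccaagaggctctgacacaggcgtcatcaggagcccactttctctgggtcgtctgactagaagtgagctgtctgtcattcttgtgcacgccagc
Il1r1 start 2: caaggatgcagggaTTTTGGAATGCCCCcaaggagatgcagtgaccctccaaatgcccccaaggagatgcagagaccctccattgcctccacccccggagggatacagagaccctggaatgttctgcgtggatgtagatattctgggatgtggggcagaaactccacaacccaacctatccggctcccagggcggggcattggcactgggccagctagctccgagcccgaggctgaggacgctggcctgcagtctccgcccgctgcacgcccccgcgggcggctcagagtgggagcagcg
The Il6 window held 1 AP-1, 1 C/EBP and 1 NF-kB match, and the Il1b window 1 C/EBP match and a TATA box. The upstream Il1r1 window held 2 C/EBP matches, and the downstream window had a C/EBP match that overlaps an NF-kB match. Over all 9 member windows, 2 held an NF-kB match, 3 an AP-1 match, 5 a C/EBP match, 1 a STAT match, 3 a TATA box and 0 a CRE. Of all 32851 windows, 4.51% held an NF-kB match, 7.81% AP-1, 40.7% C/EBP, 8.3% STAT, 13.6% a TATA box and 1.79% a CRE. A match describes the letters of the window only.

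Levels below are log2 signals on which 0 is the 75th percentile of the array, so that each unit is a doubling. They compare one probe between arrays and not different genes. A difference was called where limma's p-value, adjusted by Benjamini-Hochberg over all genes of that fit, was below 0.05. Between 52.1% and 62.5% of gene spots were well above background on each array and none was saturated. Each of the first 3 slides carried 1 liver of every liver group, while all 4 cell samples shared another slide, so that tissue and slide cannot be told apart. In inflammatory cells the leukocyte gene Ptprc was at 5.92 to 6.58, against 0.87 to 1.78 in the livers, and the albumin gene Alb at 5.32 to 7.92, against 9.86 to 10.80 in the livers, and was well above background on every array. Samples without stem cells held positions 1 and 2 of their slide and samples with them positions 3 and 4, so that position and stem cells cannot be told apart in the cells. In the 2 h livers, treated arrays held position 2 and untreated ones position 1, and the same holds there. All 5 h livers held positions 3 or 4, so that position and time cannot be told apart in the livers either. The livers of mouse 10, which had stem cells, and mouse 13, which had none, were low in several members at 2 h, and results that rest on them are given with and without both. Both were picked for these values, so that a p-value from a fit without them is no independent support. In whole tissue, fewer cells of a type and less RNA per cell cannot be told apart.

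**Figure D1:**
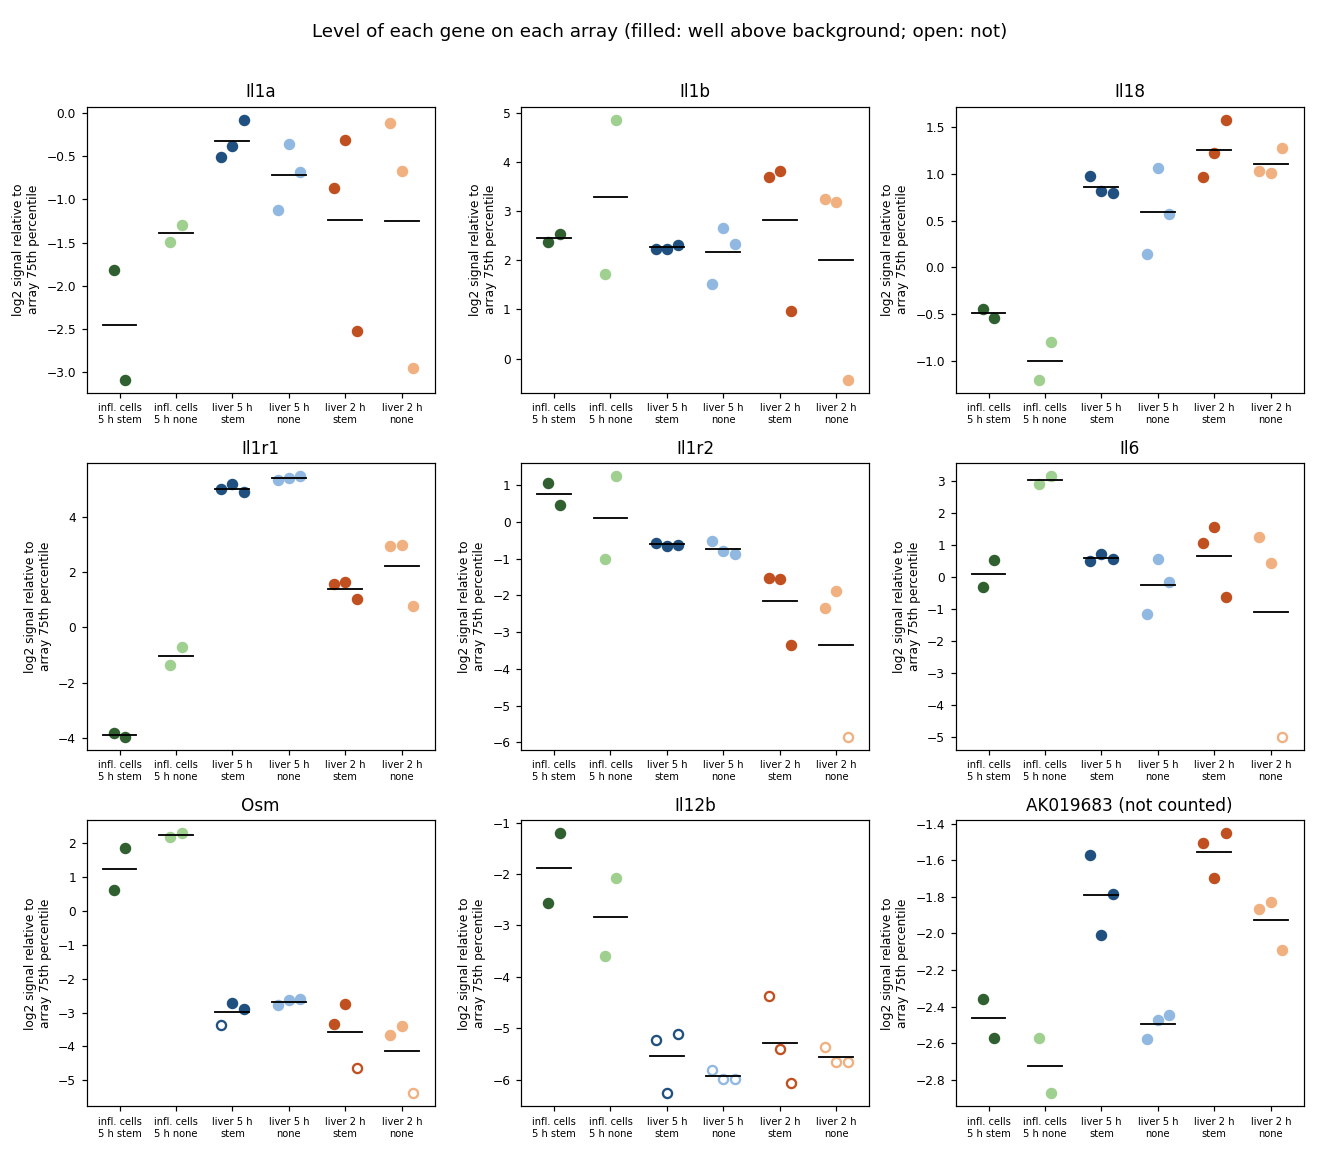
Level of 8 member genes and of the AK019683 probe on each of the 16 arrays, on a log2 scale where 0 is the 75th percentile of the array, with groups on the horizontal axis. Points are arrays, bars are group means, and open points were not well above background. Il1r1 is highest in the 5 h livers and lowest in the inflammatory cells, and the open Il6 and Il1r2 points are mouse 13.

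Il1a, an IL-1 ligand of macrophages and damaged cells, was called in no comparison among the livers and was lower in inflammatory cells than in liver when stem cells were given. It read -1.81 and -3.09 in cells of mice given stem cells and -1.49 and -1.29 in cells of mice given none. Livers at 5 h had -0.51, -0.38 and -0.075 in treated mice, against -1.12, -0.35 and -0.68 in untreated mice. At 2 h the treated livers read -0.87, -0.31 and -2.52, against -0.12, -0.67 and -2.95 in the untreated. Mice 10 and 13 were the low livers at 2 h, and the groups overlapped. Both treated cell samples lay below all 3 treated 5 h livers, with a difference of -2.13 ± 0.76 (SE, adjusted p = 0.0254, 4.37-fold). That call was lost after normexp background correction (-0.79, adjusted p = 0.184), without sample 989 (adjusted p = 0.206, with 1 treated cell array left and the spread taken from the other groups) and without mouse 3 (adjusted p = 0.0623). The second Il1a probe read -3.32 and -3.61 in cells with stem cells, against -0.72, -0.86 and -1.07 in the livers with stem cells.

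Il1b, the main secreted IL-1 of activated macrophages, was well above background on all 16 arrays and was called in no comparison over all arrays. It was at 2.36 and 2.53 in cells with stem cells and at 1.72 and 4.86 in cells without, where sample 985 held the highest level of all. Treated livers at 5 h read 2.24, 2.24 and 2.32, and untreated ones 1.52, 2.66 and 2.33. Treated livers at 2 h had 3.70, 3.82 and 0.97, and untreated ones 3.25, 3.18 and -0.43. The other 4 livers at 2 h lay above all 6 livers at 5 h. Without mice 10 and 13, Il1b fell by 1.49 ± 0.28 between 2 h and 5 h with stem cells (adjusted p = 0.00722) and by 1.05 ± 0.28 without (adjusted p = 0.0437). Over all 12 livers those differences were -0.56 ± 0.98 (adjusted p = 0.741) and 0.17 ± 0.98 (adjusted p = 0.925). Mice 10 and 13 were picked for low values and held the lowest Il1b levels at 2 h. Leaving them out therefore favours a fall, and its p-values are no support for one.

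Il18, made also by Kupffer cells and a driver of interferon-gamma release, was lower in inflammatory cells than in liver. It was at -0.44 and -0.54 in cells with stem cells and at -1.20 and -0.79 in cells without. The 5 h livers had levels of 0.98, 0.82 and 0.80 when treated and 0.15, 1.07 and 0.57 when untreated. The 2 h livers had levels of 0.96, 1.23 and 1.58 when treated and 1.04, 1.01 and 1.28 when untreated. All 4 cell samples lay below all 12 livers. Cells minus liver was -1.36 ± 0.26 with stem cells (adjusted p = 0.000532, 2.56-fold) and -1.59 ± 0.26 without (adjusted p = 0.000154, 3.01-fold), and both calls held under all 27 other settings. Among the livers the widest difference, 5 h over 2 h without stem cells, was -0.51 ± 0.23 (adjusted p = 0.154), and it was called without mouse 5 (-0.75, adjusted p = 0.0454).

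Il1r1, the signalling receptor of IL-1, rose in liver between 2 h and 5 h by 3.61 ± 0.48 with stem cells (12.2-fold, adjusted p = 0.00153) and by 3.16 ± 0.48 without (8.92-fold, adjusted p = 0.00418). Livers at 5 h had 4.98, 5.16 and 4.87 in treated mice, against 5.31, 5.399 and 5.45 in untreated mice. At 2 h the treated livers read 1.57, 1.62 and 1.00, against 2.92, 2.98 and 0.78 in the untreated. Every 5 h liver lay above every 2 h liver, and the 5 h arrays also held other positions on the slides than the 2 h arrays. Within slides the rise was 3.41, 3.87 and 3.54 with stem cells and 2.33, 2.48 and 4.67 without. With only the arrays of those 2 groups in the fit, the untreated rise kept its size but not its call (adjusted p = 0.0515).

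Il1r1 was much lower in inflammatory cells than in liver. It was at -3.82 and -3.94 in cells with stem cells and at -1.36 and -0.72 in cells without, and every spot was well above background. Cells minus 5 h liver was -8.88 ± 0.51 with stem cells (472-fold, adjusted p = 8.82e-09) and -6.43 ± 0.51 without (86.1-fold, adjusted p = 1.71e-07), and after normexp background correction -6.30 and -5.97. The summed level of 11 measured hepatocyte markers, of 12 listed, was 145 to 334 times the 75th percentile in cells with stem cells and 85.8 to 188 in cells without, against 4210 to 5870 and 3840 to 4910 in the 5 h livers with and without. All 11 were well above background on every liver array and 9 to 11 on the cell arrays, and their part in the Il1r1 difference was not tested.

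With stem cells Il1r1 lay lower in all 3 settings, with no call over all arrays. In inflammatory cells the difference was -2.84 ± 0.38 (7.14-fold, adjusted p = 0.11), and the groups did not overlap. Its size depended on the processing: over 9 other settings with all cell arrays it lay between -3.05 and -0.78, with no call. Without sample 985 it was -2.52 (adjusted p = 0.0155), a fit with 1 untreated array left, which is assumed to vary like the treated pair that alone gives the spread. At 5 h in liver it was -0.38 ± 0.48 (adjusted p = 0.77), and each of the 3 treated livers lay below each of the 3 untreated ones, a separation not counted over all genes. At 2 h it was -0.83 ± 0.48 (adjusted p = 0.869), with mouse 13 the lowest of the untreated livers. Without mice 10 and 13 the 2 h livers read 1.57 and 1.62 with stem cells, against 2.92 and 2.98 without, a difference of -1.36 ± 0.14 (adjusted p = 0.00288). In that fit 449 genes were called at 2 h, against 4 over all livers, and leaving out these livers also narrows the spread that the test uses. Without mouse 13 alone the value was -1.55 (adjusted p = 0.00556, with 479 genes called), and with array weights it was -1.26 (adjusted p = 0.0405, with 291 genes called). The weights were estimated from the same arrays, and neither p-value is independent support. Within slides the difference was -1.41 and -1.92 on the first and second and 0.84 on the third, which holds mouse 13.

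Il1r2, the decoy receptor of neutrophils and macrophages, lay higher in liver at 5 h than at 2 h, with a call only when livers were left out or probes were averaged. Treated livers at 5 h read -0.57, -0.66 and -0.62, and untreated ones -0.52, -0.81 and -0.87. Treated livers at 2 h had -1.54, -1.57 and -3.34, and untreated ones -2.35, -1.88 and -5.84, and mouse 13 was not well above background. All 5 h livers lay above all 2 h livers, yet the differences of 1.53 ± 0.87 with stem cells (adjusted p = 0.251) and 2.62 ± 0.87 without (adjusted p = 0.0663) were not called. Without mice 10 and 13 Il1r2 rose by 0.94 ± 0.17 with stem cells (adjusted p = 0.00626) and by 1.38 ± 0.17 without (adjusted p = 0.00351). Without mouse 13 alone the treated rise was called (adjusted p = 0.024) at the same size of 1.53. That mouse is not in the treated comparison and enters only its spread. The untreated rise was called without mouse 12 (adjusted p = 0.0407) and with the mean of both probes (2.28, adjusted p = 0.0482). Inflammatory cells read 1.06 and 0.46 in treated samples and -1.01 and 1.23 in untreated ones, which overlapped (0.64 ± 0.74, adjusted p = 0.665). Without sample 985 that difference was 1.76 (adjusted p = 0.0419), and without sample 983 it was -0.48 (adjusted p = 0.675), each with 1 untreated array left and the spread from the treated pair alone. Cells minus 5 h liver was 1.37 ± 0.98 with stem cells (adjusted p = 0.237), with the groups apart, and 0.85 ± 0.98 without (adjusted p = 0.479), with overlap. The treated difference was called with only the compared arrays (adjusted p = 0.00351) and without mice 10 and 13 (adjusted p = 0.0285). Both fits kept its size and changed only the spread. The second Il1r2 probe read -2.08 to -2.14 in 5 h livers with stem cells and -2.17 to -2.34 without, against -3.24 to -4.71 and -3.49 to -5.44 in the 2 h livers with and without. The summed level of 15 measured neutrophil markers, of 16 listed, was 328 to 407 and 291 to 368 in 5 h livers with and without stem cells, against 37.1 to 112 and 16.6 to 147 at 2 h. Of the 14 tested among livers, 13 lay higher at 5 h than at 2 h, with and without stem cells. In untreated cells over untreated 5 h livers, 5 of the 15 were called higher and 1 lower, with differences from -7.43 to 5.80. Their sum in untreated cells was 157 to 234, below that of the untreated 5 h livers, so it is no plain reading of neutrophils. The part of these markers in the Il1r2 values was not tested.

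Il6, the main inducer of the acute phase response, stood out in the untreated inflammatory cells. It was at -0.33 and 0.52 in cells with stem cells and at 2.90 and 3.13 in cells without. The 5 h livers had levels of 0.50, 0.72 and 0.56 when treated and -1.16, 0.57 and -0.17 when untreated. The 2 h livers had levels of 1.05, 1.54 and -0.65 when treated and 1.24, 0.43 and -4.99 when untreated, and mouse 13 was the only array whose Il6 spots were not above background. The untreated cells lay above all other arrays. The difference with stem cells in cells was -2.92 ± 0.42 (7.56-fold) and was not called (adjusted p = 0.114). It was called after normexp correction (-2.76, adjusted p = 2.88e-05), where 987 genes were called in place of 2. Without sample 985 it was -2.81 (adjusted p = 0.0186), with the spread from the treated pair alone. The summed neutrophil markers were 644 to 681 in cells with stem cells, against 157 to 234 without, all 15 well above background on each array. Macrophage and monocyte markers summed to 669 to 767 with stem cells and 387 to 715 without, which overlapped. Dendritic cell markers summed to 1090 to 1170 with stem cells and 510 to 1070 without. The part of these markers in the Il6 difference was not tested.

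Untreated cells lay above untreated 5 h livers in Il6 by 3.27 ± 1.36 (9.66-fold), just outside the threshold (adjusted p = 0.052). Without mice 10 and 13, which enter only the spread of this test, the same difference had an error of 0.45 and an adjusted p of 6.92e-05. Leaving out single arrays put the adjusted p between 0.000488 and 0.161, and it was called after normexp correction (2.99, adjusted p = 0.00181) and quantile normalization (3.55, adjusted p = 0.0413). Cells with stem cells did not lie apart from livers with stem cells (-0.50 ± 1.36, adjusted p = 0.765). The stem cell difference in cells minus that in liver was -3.77 ± 1.92 (adjusted p = 0.334), and without mice 10 and 13 it was -3.77 ± 0.64 (adjusted p = 0.0131). Neither liver is in the groups of this contrast, so leaving them out changes only the spread. They were picked for low values, and the smaller p-value adds no support. For Il1r1 the same contrast was -2.45 ± 0.72 (adjusted p = 0.0922), and without those livers -2.45 ± 0.28 (adjusted p = 0.00289), again with only the spread changed. Over 11 other settings, single arrays left out aside, the Il1r1 contrast lay between -2.505 and -0.32, with adjusted p up to 0.824.

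Osm, the oncostatin M gene of neutrophils and activated macrophages, was higher in inflammatory cells than in liver. It was at 0.62 and 1.85 in cells with stem cells and at 2.20 and 2.29 in cells without. Livers at 5 h had -3.36, -2.71 and -2.90 in treated mice, against -2.78, -2.64 and -2.60 in untreated mice. At 2 h the treated livers read -3.33, -2.75 and -4.63, against -3.65, -3.39 and -5.39 in the untreated. Every cell sample lay above every liver, and 3 of the 12 livers (mice 1, 10 and 13) were not well above background. Cells were higher by 4.23 ± 0.60 with stem cells (18.7-fold, adjusted p = 4.23e-05) and by 4.92 ± 0.60 without (30.3-fold, adjusted p = 1.14e-05), called under all 27 other settings too, with 2.5 and 3.67 after normexp correction. The second Osm probe read -1.02 and 0.030 in cells with stem cells and -0.36 and 0.48 in cells without, and was not well above background in 10 of the 12 livers. With stem cells Osm in cells differed by -1.01 ± 0.48, with groups apart and no call (adjusted p = 0.33).

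The AK019683 probe was not called for stem cells in either set of livers, though every treated liver lay above every untreated liver of the same time. How many of all genes lay apart in this way in liver was not counted, and at 2 h the treated arrays also held another slide position. It was at -2.36 and -2.57 in cells with stem cells and at -2.57 and -2.87 in cells without. Treated livers at 5 h read -1.57, -2.01 and -1.78, and untreated ones -2.58, -2.47 and -2.44, while 2 h livers read -1.51, -1.70 and -1.45 when treated and -1.86, -1.83 and -2.09 when untreated. The difference in liver was 0.71 ± 0.14 at 5 h (adjusted p = 0.161) and 0.37 ± 0.14 at 2 h (adjusted p = 0.828). Without stem cells it fell by 0.57 ± 0.14 between 2 h and 5 h (1.48-fold, adjusted p = 0.0274). Whether it reads Lif transcript was not tested.

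Il12b, the shared chain of IL-12 and IL-23 made by dendritic cells and macrophages, was measured only in inflammatory cells. It was at -2.56 and -1.21 in cells with stem cells and at -3.59 and -2.08 in cells without, with all 10 spots well above background on each of those arrays. In the livers 0 to 3 of its 10 spots were, so it was not tested among livers. Relative to the dimmest spots well above background in the 5 h livers, treated cells were at least 4.38-fold higher and untreated cells at least 2.78-fold higher. It passed the filter only through the 4 cell arrays, where it is high, so that its calls in the fit (adjusted p = 7.6e-05 with stem cells and 0.00032 without) are no support for a difference. After normexp correction neither was called (adjusted p = 0.0574 with stem cells and 0.285 without). The treated and untreated cells overlapped (0.95 ± 0.67, adjusted p = 0.474). The 12 dendritic cell markers summed to 1090 to 1170 in cells with stem cells and 510 to 1070 in cells without, against 38.8 to 43.2 and 34.6 to 39 in the 5 h livers, with all 12 well above background in the cells, and their part was not tested. That list holds MHC class II genes such as H2-Ab1 and H2-Aa, and its sum was not shown to read dendritic cells alone. The 7 B cell markers summed to 225 to 238 and 130 to 229 in cells with and without stem cells, against 2.85 to 2.89 and 1.96 to 2.29 in 5 h livers.

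Stem cells at once over none in 2 h livers called 0 of the 7 members tested, by limma, where 0.0279% of all genes were called, and 0 members had an unadjusted p below 0.05. Stem cells at 3 h over none in 5 h livers also called 0 of 7 and 0 unadjusted, where 0.0348% of all genes were called. In inflammatory cells 0 of 8 were called against 0.0143% of all genes, and Il1r1 and Il6 had an unadjusted p below 0.05. There, 4 of the 8 (Il1a, Il1r1, Il6 and Osm) lay lower in both treated samples than in both untreated ones, against 25.1% of all genes. Il18 lay the other way, higher in both treated samples (0.505 ± 0.36, adjusted p = 0.475). The second Osm probe overlapped between the groups, and the Il1a difference was 0.010 after normexp correction. The median difference of the 8 was -0.93, against 0.093 over all genes.

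**Figure D2:**
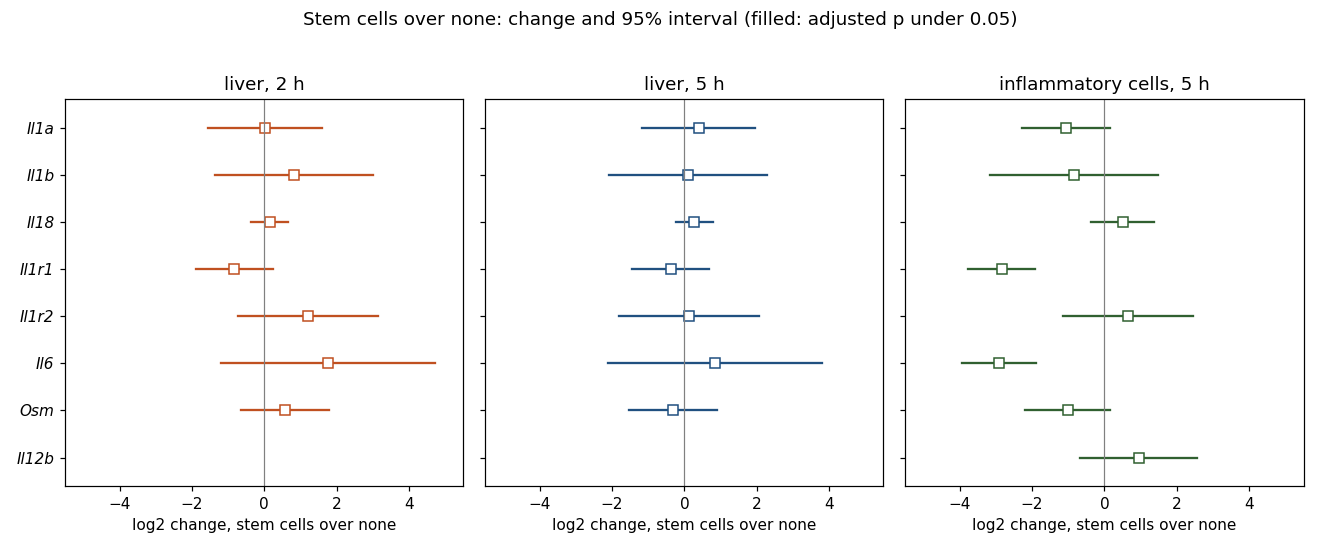
Log2 change of each member with stem cells over none and its 95% interval, in 2 h livers, 5 h livers and inflammatory cells. No change is called, and the intervals of Il1r1 and Il6 in inflammatory cells do not reach 0.

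The stem cell effect at 5 h minus that at 2 h in liver was called for 0 of 7 members, against 0.0139% of all genes, with 0 at an unadjusted p below 0.05. The stem cell effect in cells minus that in liver was called for 0 of 8, against 2.33% of all genes, and Il1r1 had an unadjusted p below 0.05. Intervals were wide: for Il6 the first contrast ran from -5.08 to 3.27 and the second from -7.93 to 0.39.

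Between 2 h and 5 h, 1 of 7 members rose with stem cells, where 8.84% of all genes rose, and 1 of 7 without, where 6.5% did. It was Il1r1 both times. The median over the 7 was 0.58 with stem cells and 0.85 without, against -0.084 and -0.078 over all genes. Without mice 10 and 13 the calls were Il1r1 and Il1r2 up and Il1b down with stem cells, and those 3 and Osm (up by 0.84 ± 0.23, adjusted p = 0.0479) without. There, 2876 of the 14360 liver genes were called in either direction with stem cells and 1912 without. Both livers had been picked for low values of members. Among the 4 liver groups a moderated F test called 1 of 7 members, Il1r1 (adjusted p = 0.0011), where 23.9% of all genes were called, and Il1r2 missed it (adjusted p = 0.0933).

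**Figure D3:**
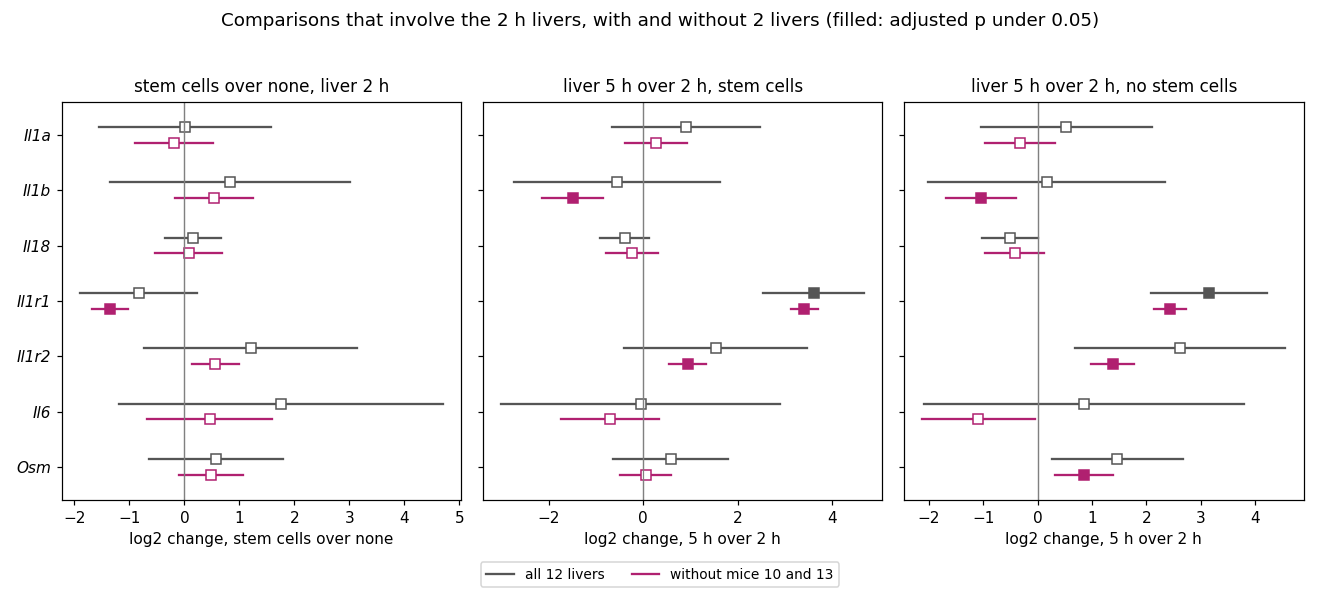
Log2 change of 7 members with its 95% interval in the 3 comparisons that involve 2 h livers, over all 12 livers and without mice 10 and 13. With stem cells at 2 h Il1r1 differs by -0.83 over all livers, not called, and by -1.36 without both, called. Both livers were picked for low values, so that the call without them is no independent support. The rise of Il1r1 with time is called either way.

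Inflammatory cells over 5 h livers gave the most calls. With stem cells, 2 of 8 members were higher in cells (Osm and Il12b), where 28.1% of all genes were, and 3 were lower (Il1a, Il18 and Il1r1), where 35.8% were. Without stem cells, 2 were higher (Osm and Il12b), where 29.1% of all genes were, and 2 lower (Il18 and Il1r1), where 31.9% were. Il12b entered only through the cell arrays, which leaves Osm as the higher member that was also measured in liver. Over the 6 groups an F test called 5 of 8 members (Il1r1, Il1r2, Il18, Osm and Il12b), where 76.2% of all genes were called, with Il12b again entering only through the cells, and left Il1a (adjusted p = 0.21), Il6 (adjusted p = 0.169) and Il1b (adjusted p = 0.879) uncalled.

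**Figure D4:**
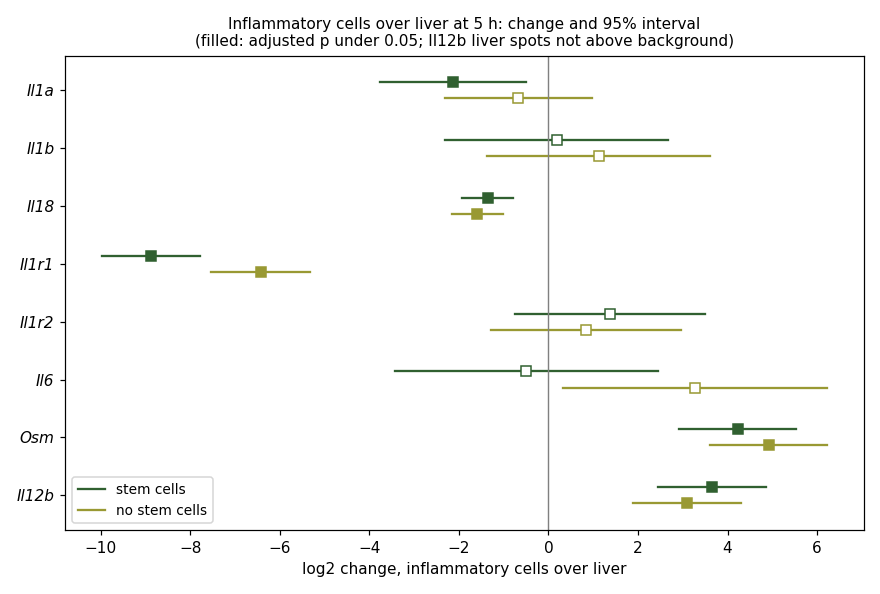
Log2 change of each member in inflammatory cells over 5 h liver with its 95% interval, with and without stem cells. Il1r1 and Il18 lie lower in cells and Osm and Il12b higher; the liver values of Il12b were not above background and it passed the filter only through the cells, so that its plotted change is neither a measured fold nor a test.

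Ordered by mean level, Il1r1 ran from the 5 h livers without stem cells (5.38 ± 0.071, SD, n = 3) through those with (5.00 ± 0.14), the 2 h livers without (2.23 ± 1.25) and with (1.40 ± 0.34), to cells without (-1.04 ± 0.45, n = 2) and with (-3.88 ± 0.091). Only the 2 groups of 2 h livers overlapped among neighbours. Osm ran from cells without (2.25 ± 0.066) and with stem cells (1.24 ± 0.86) to the livers (-2.68 to -4.14), among which all neighbours overlapped. Il6 was highest in cells without stem cells (3.02 ± 0.16), and the other 5 groups overlapped their neighbours (0.65 to -1.11). Il1b showed no such order, with means of 3.29 to 2.00 and overlap between all neighbours except cells and 5 h livers given stem cells.

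Of 58 further genes of these pathways, listed as relatives, receptors and signalling partners with earlier results of these data known, 46 were tested in liver. With stem cells 10 rose between 2 h and 5 h, where 8.84% of all genes did, and 1 fell, where 1426 of 14360 genes did. The largest rises were Osmr, the oncostatin M receptor (2.18 ± 0.57, adjusted p = 0.0253), Il18r1, a chain of the IL-18 receptor (at least 2.27-fold, adjusted p = 0.00444, well above background in 2 of 3 livers at 5 h), the kinase gene Jak2 (1.86 ± 0.37, adjusted p = 0.00872), Stat3 (1.68 ± 0.35, adjusted p = 0.0101) and the alarmin gene Il33 (1.57 ± 0.48, adjusted p = 0.0466). Ctf1, a cytokine of the IL-6 family, fell by 0.75 ± 0.23 (adjusted p = 0.0436).

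Without stem cells 5 of the 46 rose, where 6.5% of all genes did, and 2 fell, where 1348 of 14360 genes did. Il33 rose by 1.84 ± 0.48 (adjusted p = 0.0304), Stat3 by 1.35 ± 0.35 (adjusted p = 0.0285), Il6st by 0.81 ± 0.23 (adjusted p = 0.0402) and Irak4, a kinase below the IL-1 receptor, by 0.51 ± 0.12 (adjusted p = 0.0228). Il18r1 was also called (adjusted p = 0.0125), but only 1 of the 3 livers at 2 h was well above background, so that its size is not given. Ctf1 fell by 0.75 ± 0.23 (adjusted p = 0.0486) and Sigirr, an inhibitory receptor, by 0.72 ± 0.17 (adjusted p = 0.0223). The median of the 46 was 0.34 with and 0.20 without stem cells. No pathway gene was called for stem cells over none in either set of livers (0 of 46) or in inflammatory cells (0 of 47).

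In inflammatory cells over liver, 18 of 52 pathway genes were higher with stem cells, where 28.1% of all genes were, and 15 were lower, where 35.8% were. Without stem cells 21 were higher, where 29.1% of all genes were, and 15 lower, where 31.9% were. The higher genes include some, such as Il12rb2 and Nlrc4, that did not pass the filter among the livers. The lower genes include some, such as Il33 and Ctf1, that did not pass it among the cells. The counts are therefore no support for a shift of the list, and p-values of such genes are no support for a difference. With stem cells the largest falls were those of Osmr (at least 106-fold, adjusted p = 7.15e-07), Il33 (at least 21.5-fold, adjusted p = 1.69e-07), Il1rap, the partner chain of the Il1r1 product (35.7-fold, adjusted p = 6.38e-10), Lifr, the leukaemia inhibitory factor receptor (31.8-fold, adjusted p = 8.27e-09), and Il1rn, the IL-1 receptor antagonist gene (23.7-fold, adjusted p = 0.0159). The largest rises were those of Stat4, which carries the IL-12 signal (37.7-fold, adjusted p = 9.99e-08), Il18r1 (14.5-fold, adjusted p = 9.54e-07), Pycard, the inflammasome adaptor (14.3-fold, adjusted p = 1.06e-07), Il27ra (13.7-fold, adjusted p = 3.53e-08) and Il12rb1, an IL-12 receptor chain (9.91-fold, adjusted p = 0.00028). Of these, Il18r1, Il27ra and Il12rb1 were well above background in 2 of the 3 treated livers.

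Without stem cells the largest falls were those of Il33 (at least 45.2-fold, adjusted p = 3.95e-08), Ctf1 (at least 27.7-fold, adjusted p = 2.77e-08), Osmr (53.9-fold, adjusted p = 3.39e-06), Lifr (34.7-fold, adjusted p = 5.82e-09) and Il1rap (24.1-fold, adjusted p = 1.32e-09). Il33 and Ctf1 passed the filter through the livers, where they are high, so that their p-values are no support for a difference. The largest rises were those of Stat4 (43.1-fold, adjusted p = 6.75e-08), Tbx21, a Th1 factor gene (42.5-fold, adjusted p = 0.000335), Il12a, the other chain of IL-12 (21.9-fold, adjusted p = 7.91e-05), Il18rap, a chain of the IL-18 receptor (20-fold, adjusted p = 7.48e-05, with 2 of 3 livers well above background) and Il18r1 (14.2-fold, adjusted p = 1.08e-06).

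Over the 12 livers, pooled across groups and including mice 10 and 13, each member was set beside every other gene as a description, since time, stem cells and slide are shared by these points. Il1r1 was most like Nip7 (r = 0.993), Dph5 (0.989) and Flot1 (0.989). Il1r2 was most like the neutrophil genes S100a8 (r = 0.974), Mmp8 (0.974) and S100a9 (0.969), and Osm like the lectin receptor genes Clec4d (0.937) and Clec4e (0.937) and like Il1r2 (0.936). Il1b was most like Cd83 (r = 0.96), Rcan1 (0.959) and Ddi2 (0.923), and Il6 like Il1b (0.908), Slc38a2 (0.905) and Nfkbia (0.904), the NF-kB inhibitor gene. Il1a was most like Samsn1 (0.967), Gpr18 (0.967) and Rnd1 (0.965), and Il18 like Pir (0.985), Smpdl3a (0.966) and Lrpap1 (0.966). Between members, Il18 ran against Il1r1 (r = -0.729), and Il1b and Il1r1 were nearly unrelated (r = 0.133).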

How the data were processed

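Single-colour Agilent arrays, labelled with Cy3 per the labels' protocols, were read by Feature Extraction 10.5.1.1, per the submitters' processing notes. The intensity used was the background-corrected processed signal per spot that the authors deposited, which equals their deposited value table. Here each array's 43379 gene spots were put on log2 and centred on their 75th percentile, outlier-marked spots were left out and spots of a probe averaged. Of 41174 probes, 23374 were named by accession, 6733 by symbol and 2919 by an older symbol through RefSeq; 1256 kept the design's name and 6892 none. Probes stayed if well above background on 3 of 12 livers, 2 of 4 cell arrays or 2 of 16 arrays, and a gene was its brightest such probe. Tests were limma 3.58.1 (R 4.3.3) with Benjamini-Hochberg adjustment over all genes, in 1 fit for livers, 1 for cells and 1 for both, tested on simulated data. A fold given as "at least" sets the brighter group's mean against, on each dim array, the higher of the dimmest signal well above background and the gene's own. The number of arrays limits precision. Members and lists were chosen with earlier results of these data known. Named are all members, the called pathway genes with the 5 largest rises and 5 largest falls per comparison, and the 3 genes most like each member well above background in 6 livers. Other settings changed the background correction, scaling, filter, probe rule, outlier spots, slide, arrays in the fit and array weights, or left out arrays.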

Additional observations from a re-analysis of the deposited data

Results flagged for a closer look

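Il6st, the signalling chain shared by the receptors of IL-6, oncostatin M and leukaemia inhibitory factor, was the pathway gene called for a different response to stem cells in inflammatory cells and in liver. The difference with stem cells in inflammatory cells minus that in 5 h liver was -2.04 ± 0.44 (limma, adjusted p = 0.0347). Treated inflammatory cells read 0.48 and 0.74, and untreated ones 3.24 and 2.23. Treated livers at 5 h read 3.74, 3.89 and 3.64, and untreated ones 3.82, 3.67 and 4.02. The cell groups lay apart while the liver groups overlapped. In cells alone the difference was -2.12 ± 0.45 and was not called (adjusted p = 0.151). Array position and stem cells cannot be told apart in the cells. It was 1 of 52 pathway genes called in this contrast, where 2.33% of all genes were. The difference kept its direction (-2.55 to -1.53) under 27 other settings but was called under 11 of them, with adjusted p between 0.00303 and 0.161. After normexp correction it was -1.98 (adjusted p = 0.161), and 3 genes were called in this contrast in place of 372. With sample 983 or 985 left out it was -1.53 (adjusted p = 0.123) and -2.55 (adjusted p = 0.00303), with 1 untreated cell array left.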

How the results depend on the processing

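Of 263 recomputed counts of called members 245 stayed within 1.5 times of the reported count, and of 1592 recomputed log2 differences 1504 kept direction and side of the threshold, 50 turned, 6 lost their call and 32 gained one. No difference called over all arrays turned under any setting run. The cause of each change was not tested. With normexp correction the called members numbered 1 in stem cells over none in cells and 3 in treated cells over liver. With the mean of a gene's probes the called members numbered 2 in 5 h over 2 h in untreated liver. With only the compared arrays the called members numbered 0 in 5 h over 2 h in untreated liver and 2 in the cells minus liver stem cell effect. With array weights the called members numbered 1 in stem cells over none in 2 h liver. Without the livers of mice 10 and 13 the called members numbered 1 in stem cells over none in 2 h liver, 4 in 5 h over 2 h in untreated liver, 3 in 5 h over 2 h in treated liver, 3 in the 4 liver groups and 2 in the cells minus liver stem cell effect. Reported counts there were 0 in stem cells over none in 2 h liver, 1 in 5 h over 2 h in untreated liver, 1 in 5 h over 2 h in treated liver, 1 in the 4 liver groups, 0 in stem cells over none in cells, 5 in treated cells over liver and 0 in the cells minus liver stem cell effect. Leaving out single arrays gave 1 to 2 called members in 5 h over 2 h in untreated liver, 0 to 1 called members in stem cells over none in 2 h liver, 1 to 2 called members in 5 h over 2 h in treated liver, 1 to 2 called members in the 4 liver groups, 0 to 2 called members in the cells minus liver stem cell effect and 0 to 3 called members in stem cells over none in cells. Turned log2 differences with normexp correction were Il18 -0.038 in stem cells over none in 2 h liver, Osm 0.068 in stem cells over none in 5 h liver, Il6 0.073 and Osm -0.31 in 5 h over 2 h in treated liver and Il1a 0.010 in stem cells over none in cells. Turned log2 differences with median scaling were Il1a -0.072 in stem cells over none in 2 h liver, Il1b -0.064 and Il1r2 -0.043 in stem cells over none in 5 h liver and Il6 0.005 in 5 h over 2 h in treated liver. With the mean of a gene's probes the log2 difference that turned was Il1a -0.052 in stem cells over none in 2 h liver. Turned log2 differences with array weights were Il1a -0.014 in stem cells over none in 2 h liver and Il1a -0.031, Il1b -0.71 and Il6 -0.50 in 5 h over 2 h in untreated liver. Turned log2 differences without the livers of mice 10 and 13 were Il1a -0.19 in stem cells over none in 2 h liver, Il1a -0.32, Il1b -1.05 and Il6 -1.09 in 5 h over 2 h in untreated liver and Il6 0.39 in the 5 h minus 2 h stem cell effect. For stem cells over none in 2 h liver, leaving out single arrays put Il1a between -0.84 and 0.66, Il18 between -0.011 and 0.30, Il1b between -0.39 and 1.75, Il1r2 between -0.037 and 1.95, Il6 between -0.19 and 2.93 and Osm between -0.052 and 1.101. For 5 h over 2 h in treated liver, leaving out single arrays put Il6 between -0.70 and 0.40. For the 5 h minus 2 h stem cell effect, leaving out single arrays put Il18 between -0.10 and 0.35, Il1a between -0.26 and 1.24, Il1b between -1.66 and 0.48, Il1r2 between -1.83 and 0.15 and Il6 between -2.08 and 1.04. For 5 h over 2 h in untreated liver, leaving out single arrays put Il1a between -0.32 and 1.09, Il1b between -1.05 and 0.79 and Il6 between -1.09 and 2.02. For stem cells over none in 5 h liver, leaving out single arrays put Il1b between -0.23 and 0.34. For the cells minus liver stem cell effect, leaving out single arrays put Il18 between -0.001 and 0.46, Il12b between -0.20 and 1.31, Il1r2 between -0.59 and 1.65 and Il1b between -2.51 and 0.63. For stem cells over none in cells, leaving out single arrays put Il1r2 between -0.48 and 1.76 and Il1b between -2.42 and 0.73. For untreated cells over liver, leaving out single arrays put Il1b between -0.45 and 2.69 and Il1r2 between -0.28 and 1.97. The all-gene median shifted by 0.424 (treated cells over liver), 0.277 (the cells minus liver stem cell effect) and 0.141 (stem cells over none in cells) with normexp correction, by 0.124 and 0.19 (untreated and treated cells over liver) with quantile normalization, and by -0.159, 0.129 and -0.209 (stem cells in 5 h liver, 5 h over 2 h in untreated liver, stem cells in cells) with median scaling. The share of higher genes among calls was 68.7% with normexp correction in place of 47.1% (5 h over 2 h, treated), 58.2% with median scaling in place of 40.9% (untreated), 27.3% in place of 60% of few calls (stem cells, 5 h liver) and 33.5% with quantile normalization in place of 22% (cells minus liver). Mice 10 and 13 were picked for their values, so the narrower spread follows from leaving them out. No paired analysis was possible because the groups share no mouse or sample numbers, but slides 1 to 3 hold 1 liver of each liver group, and with slide as a block no member's call or direction in liver changed. Groups of 2 or 3 arrays limit precision, and Il12b in liver and Osm in mice 1, 10 and 13 were not well above background.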
